A study of Homo sapiens with 5 samples.

Results

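The expression of 47 genes of transforming growth factor beta (TGF-β) and bone morphogenetic protein (BMP) signalling was compared between 501Mel cells, a human melanoma line, and Hermes 3A cells, an immortalised line of human melanocytes. The genes were chosen by name for their role in the pathway: ligands, latent binding proteins, extracellular antagonists, receptors, SMAD proteins and the ID target genes. The choice was made with earlier results of these data known. Counts for 46 of them were listed for both lines, among 31029 genes listed for both and 40263 listed for either. The libraries were 2 of shBPTF 501Mel cells (replicates 1 and 2) and 3 of shBPTF Hermes 3A cells (replicates 1 to 3). In both lines the cells had been infected with a lentivirus expressing a short hairpin RNA against BPTF, the largest subunit of the chromatin remodelling complex NURF, and selected with puromycin, so that every library is labelled as a knockdown. The labels do not say which shBPTF construct each library carries. Libraries of control cells were not analysed here. All differences given are between knockdown cells of the 2 lines and do not measure the effect of the knockdown. A difference present without the knockdown and a different response of the lines to the knockdown cannot be told apart.

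Each line is 1 model of its cell type. Hermes 3A cells were grown with agents not given to 501Mel cells, among them the phorbol ester TPA, cholera toxin, stem cell factor and endothelin-1. The effects of the line, its malignant state, its medium and its response to the knockdown cannot be told apart. The methods say that experiments were repeated, but neither they nor the labels say whether these libraries came from separate infections or cultures, so the p-values measure only the spread between these samples, which may be technical. In bulk RNA, a lower level in each cell and a smaller share of cells with the transcript cannot be told apart.

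TGF-β, activin and nodal ligands bind pairs of type I and type II serine-threonine kinase receptors, and in the classical pathway these phosphorylate SMAD2 and SMAD3. BMP ligands act through related receptors on SMAD1, SMAD5 and SMAD9. The phosphorylated SMADs join SMAD4, enter the nucleus and regulate genes, of which the ID genes are well-known BMP targets, while SMAD6 and SMAD7 restrain the receptors. TGF-β slows the growth of normal melanocytes, and melanoma cells have often lost this response.

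The libraries of 501Mel cells held 37856675 and 43032311 counts and those of Hermes 3A cells 30073071 to 41653084. Levels are given in CPM, the count scaled to a common library total, in which 3 counts of a library make 0.0675 to 0.101 CPM. BPTF itself was at 63.7 and 57.1 CPM in 501Mel cells and at 48.7, 50.9 and 54.9 CPM in the Hermes 3A libraries. The 7 melanocyte lineage markers were detected in both lines, summing to 12300 to 19400 CPM in 501Mel cells and 31800 to 34900 CPM in the Hermes 3A libraries, but DCT, a melanin synthesis enzyme, was at only 7.85, 8.70 and 13.3 CPM in the 3 Hermes 3A libraries, against 1034 and 1284 CPM in 501Mel cells. Of the markers of other cells, the 7 fibroblast genes summed to 4.28 to 18.9 CPM in 501Mel cells and 86.0 to 194 CPM in the Hermes 3A libraries, nearly all from COL1A2 (74.0, 177 and 190.0 CPM), while DCN was at 0.0337 to 0.158 CPM in all libraries. The 3 of 6 keratinocyte and epithelial genes listed for both lines summed to 0.428 to 1.02 and 17.6 to 32.4 CPM, mainly from CDH1. The 3 of 5 blood and endothelial genes listed for both stayed between 0.225 and 0.627 CPM, and PTPRC had 2 counts in 1 library and 0 in the others. The part of these other markers in the results was not tested.

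Of the 47 genes, 43 had enough counts to be tested with edgeR, and 24 of them differed between the lines at an adjusted p of at most 0.05: 8 were higher and 16 lower in 501Mel cells. This is 55.8% of those tested, against 48.2% of all 17975 genes tested, of which 24.2% were higher and 24.0% lower. With a change of at least 2-fold also required, 20 were called, or 46.5%, against 34.3% of all genes. The libraries of the 2 lines did not overlap for 28 of the 43 genes, or 65.1%, against 69.6% of all genes. In 11 of these all 501Mel libraries lay above and in 17 below, beside 35.7% and 34.0% of all genes. Their median log2 fold change (501Mel over Hermes 3A, as throughout) was -0.02, beside 0.02 for all genes tested, and the median size of the change in either direction was 1.01 against 0.79. The 2 lines thus differed in individual components of the pathway in both directions. Because the 47 genes were chosen with earlier results of these data known, the shares cannot show whether the pathway differs more than other genes. INHBB, NODAL and NOG did not pass the filter on low counts. BMP5 had 0 counts in both 501Mel libraries, which allows up to 0.0675 and 0.0783 CPM, and was not listed for Hermes 3A cells. CHRD and GREM1 passed the filter on low counts mainly through the line in which they were higher, so that a difference was to be found in them.

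**Figure D1:**
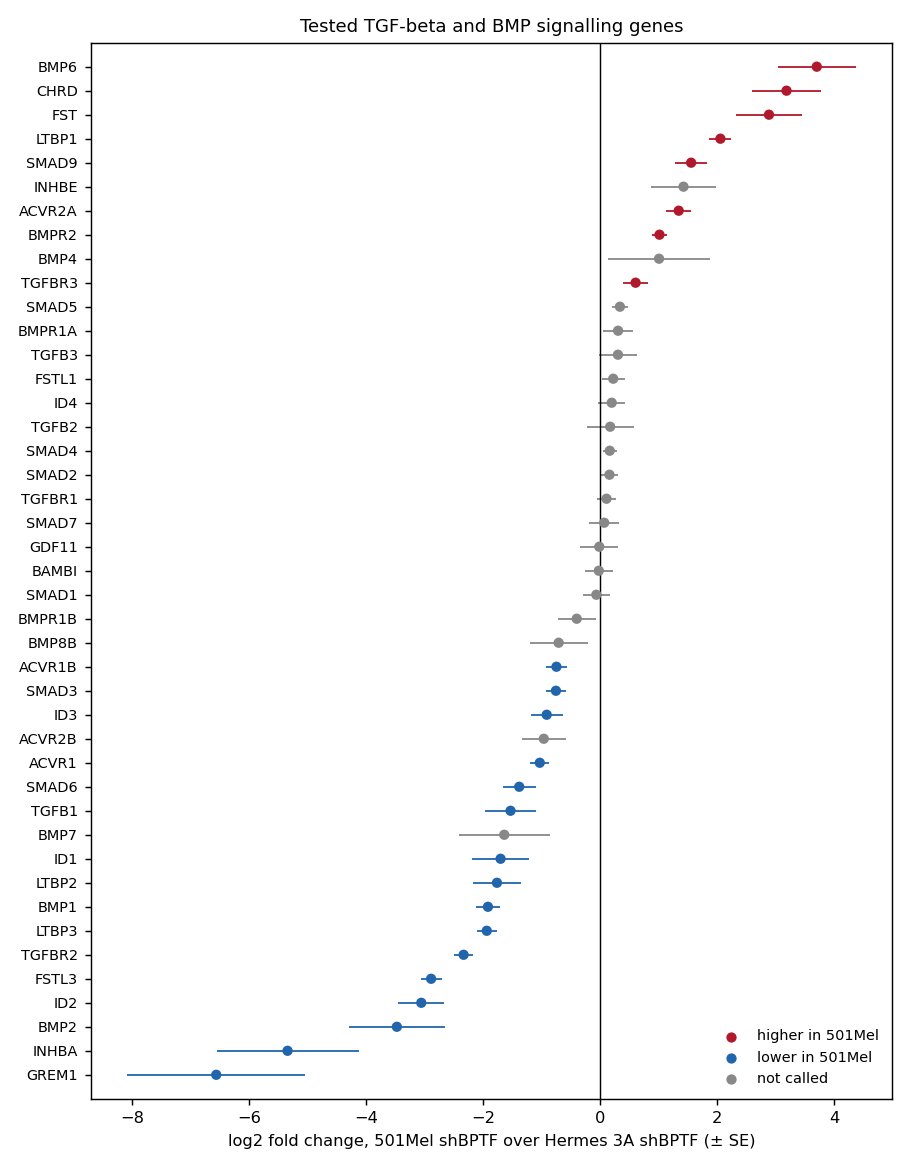
Log2 fold change of each of the 43 tested genes, 501Mel shBPTF (2 libraries) over Hermes 3A shBPTF (3 libraries), with its standard error as a bar; red, called higher in 501Mel cells (8 genes), blue, called lower (16 genes), grey, not called (19 genes). The calls run from BMP6 at 3.70 down to GREM1 at the bottom, with INHBA at -5.34 next to it. The fitted value of GREM1 rests on 1 count in the 501Mel libraries and is no measure of the size of its change.

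Of the 3 TGF-β ligands, only TGFB1 passed the test. TGFB1 (ENSG00000105329, chromosome 19), the form most tissues produce, was at 20.1 and 6.65 CPM in 501Mel cells and at 36.6, 43.7 and 35.6 CPM in the Hermes 3A libraries (log2 fold change -1.53 ± 0.43 (SE), adjusted p = 0.0221). All 501Mel libraries lay below all Hermes 3A libraries, although the 501Mel replicates were themselves 3.02-fold apart, and the log2 fold change was -2.54 without 501Mel replicate 1 and -0.96 without replicate 2. The exons of TGFB1 overlap those of HNRNPUL1 on the opposite strand over 6.64% of their length, and whether strand was used in counting is not given in the sources used here. TGFB2 was at 1.44 and 1.30 CPM in 501Mel cells and 1.56, 1.01 and 1.08 CPM in the Hermes 3A libraries, and TGFB3 at 4.95 and 3.91 CPM and 3.99, 3.83 and 2.94 CPM (adjusted p = 0.749 and 0.469). These levels overlapped for both genes. Per kb of transcript TGFB1 had the highest mean level of the 3 ligands in both lines, 27.9 CPM per kb in 501Mel cells and 80.7 CPM per kb in the Hermes 3A libraries.

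Among the activin and nodal ligands 3 of 5 could be tested, and 1 was lower in 501Mel cells. INHBA (ENSG00000122641, chromosome 7), which encodes the subunit of activin A, had 26 and 3 counts (0.585 and 0.0783 CPM) in 501Mel cells and 1202, 166 and 205 counts (30.7, 4.001 and 6.92 CPM) in the Hermes 3A libraries. The lines did not overlap, with log2 fold change -5.34 ± 1.21 (SE), adjusted p = 0.00975. Its level varied 7.47-fold between the 501Mel libraries and 7.68-fold between those of Hermes 3A cells, and the log2 fold change moved from -7.42 without 501Mel replicate 1 to -4.58 without 501Mel replicate 2 and -4.02 without Hermes 3A replicate 1. GDF11, a ligand of the activin receptors with the highest mean level of the class per kb of transcript in both lines (12.2 and 12.3 CPM per kb), was at 80.6 and 40.2 CPM in 501Mel cells and 47.7, 56.8 and 78.8 CPM in the Hermes 3A libraries (adjusted p = 0.975). The values of the 2 lines overlapped. INHBE, which encodes the subunit of activin E, was at 0.518 and 1.12 CPM against 0.179, 0.362 and 0.371 CPM. These libraries did not overlap, yet the test was not passed (log2 fold change 1.42 ± 0.56 (SE), adjusted p = 0.0717), and the log2 fold change was 0.76 without 501Mel replicate 2. INHBB had 1 and 3 counts in 501Mel cells and 22, 7 and 3 counts in the Hermes 3A libraries, and NODAL had 1 and 1 counts and 1, 3 and 0 counts. Neither passed the filter, and without it neither was called (adjusted p = 0.0723 and 0.839).

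The BMP ligands differed in opposite directions. BMP2 (ENSG00000125845, chromosome 20), known for inducing bone formation, was at 2.05 and 0.209 CPM in 501Mel cells and at 8.87, 14.5 and 14.7 CPM in the Hermes 3A libraries (log2 fold change -3.47 ± 0.82 (SE), adjusted p = 0.0116). The 501Mel libraries were both below all Hermes 3A libraries, but 9.81-fold apart from each other, and the log2 fold change was -5.91 without replicate 1 and -2.64 without replicate 2. BMP6 (ENSG00000153162, chromosome 6) was at 4.73 and 2.19 CPM in 501Mel cells and at 0.0767, 0.410 and 0.304 CPM in the Hermes 3A libraries (log2 fold change 3.70 ± 0.67 (SE), adjusted p = 0.00387). It was higher in both 501Mel libraries than in any of Hermes 3A cells, and no other called gene of the 43 had a higher log2 fold change, which was 3.04 without 501Mel replicate 1. BMP4 was at 6.14 and 0.913 CPM in 501Mel cells and 3.45, 0.892 and 0.911 CPM in the Hermes 3A libraries (adjusted p = 0.374). The 501Mel replicates of BMP4 were 6.73-fold apart with Hermes 3A replicate 1 between them, and its direction turned without 501Mel replicate 1. BMP7 was at 0.225 and 0.365 CPM against 0.256, 1.01 and 1.52 CPM (adjusted p = 0.122), and BMP8B at 1.44 and 0.783 CPM against 2.07, 2.27 and 1.11 CPM (adjusted p = 0.272). BMP7 overlapped between the lines, as did BMP8B, whose reads are also uncertain because BMP8A is a near-identical copy. BMP7 passed the test without Hermes 3A replicate 1 (adjusted p = 0.0133). In Hermes 3A cells BMP2 had the highest mean level of the BMP ligands per kb of transcript, 3.53 CPM per kb.

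Summed over each class, TGF-β ligands were at 26.5 and 11.9 CPM in 501Mel cells and at 42.2, 48.6 and 39.6 CPM in the Hermes 3A libraries. BMP ligands summed to 14.6 and 4.46 CPM and to 14.7, 19.1 and 18.6 CPM. With this scaling both sums were lower in each 501Mel library than in every Hermes 3A library, although for the BMP ligands 501Mel replicate 1 and Hermes 3A replicate 1 were nearly level. Neither sum describes its class as a whole. TGFB1 held most of the TGF-β sum in every library, while TGFB2 and TGFB3 were not called. BMP2 held most of the BMP sum in the Hermes 3A libraries (8.87, 14.5 and 14.7 CPM), while BMP6 was higher in 501Mel cells.

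BMP1 (ENSG00000168487, chromosome 8), which despite its name is a metalloprotease that processes procollagens and frees BMPs from chordin, was at 27.1 and 25.5 CPM in 501Mel cells and 78.8, 121 and 98.8 CPM in the Hermes 3A libraries (log2 fold change -1.92 ± 0.21 (SE), adjusted p = 0.000471). The lines were well apart. The latent TGF-β binding proteins, which hold TGF-β in the matrix in an inactive form, were all called, LTBP1 in one direction and LTBP2 and LTBP3 in the other. LTBP1 (ENSG00000049323, chromosome 2) was at 37.5 and 35.1 CPM in 501Mel cells and at 9.82, 8.56 and 7.83 CPM in the Hermes 3A libraries (log2 fold change 2.06 ± 0.19 (SE), adjusted p = 0.000238). LTBP3 (ENSG00000168056, chromosome 11) showed the reverse, 31.5 and 25.6 CPM against 98.6, 122 and 108 CPM (log2 fold change -1.94 ± 0.17 (SE), adjusted p = 0.000216). For both genes the spread within a line was small beside the distance between lines. LTBP2 (ENSG00000119681, chromosome 14), a matrix protein that binds fibrillin but not latent TGF-β itself, was at 1.60 and 0.835 CPM in 501Mel cells and 4.27, 4.39 and 3.78 CPM in the Hermes 3A libraries (log2 fold change -1.76 ± 0.42 (SE), adjusted p = 0.0113). The LTBP with the highest mean level per kb of transcript was LTBP1 in 501Mel cells (45.2 CPM per kb) and LTBP3 in the Hermes 3A libraries (109 CPM per kb).

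Of the 7 genes in the class of extracellular antagonists, which holds the pseudoreceptor BAMBI, 2 were higher and 2 lower in 501Mel cells, 2 were not called and NOG did not pass the filter. Follistatin, FST (ENSG00000134363, chromosome 5), which traps activins, was at 8.62 and 27.6 CPM in 501Mel cells and 3.20, 2.82 and 1.28 CPM in the Hermes 3A libraries (log2 fold change 2.89 ± 0.56 (SE), adjusted p = 0.00515). Its relative FSTL3 (ENSG00000070404, chromosome 19), a secreted inhibitor of activins and myostatin, was at 15.98 and 12.2 CPM in 501Mel cells and 109.9, 106 and 97.7 CPM in the Hermes 3A libraries (log2 fold change -2.89 ± 0.18 (SE), adjusted p = 5.45e-05). FST was thus higher and FSTL3 lower in every 501Mel library, with the smallest adjusted p of all 43 tested genes for FSTL3. FST replicate 2 of 501Mel cells was far above replicate 1, and the log2 fold change was 3.49 without replicate 1 and 1.803 without replicate 2.

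The promoters of this pair of inhibitors are shown because their genes differed in opposite directions, a choice made after the values were seen. Each is the 250 bases before the RefSeq start site on GRCh38.p14, on the plus strand, FST at chr5:53480379-53480628 and FSTL3 at chr19:676142-676391. Capitals in FST mark TGANTCA, a looser form of the AP-1 factor site with any base (N) in the middle, here T. Those in FSTL3 mark GGCGCC, a GC-rich palindrome bound by SMAD proteins.
FST promoter: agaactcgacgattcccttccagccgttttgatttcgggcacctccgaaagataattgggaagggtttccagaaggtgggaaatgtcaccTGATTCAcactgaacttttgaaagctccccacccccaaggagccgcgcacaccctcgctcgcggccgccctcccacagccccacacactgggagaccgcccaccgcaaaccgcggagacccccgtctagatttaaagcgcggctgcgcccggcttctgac
FSTL3 promoter: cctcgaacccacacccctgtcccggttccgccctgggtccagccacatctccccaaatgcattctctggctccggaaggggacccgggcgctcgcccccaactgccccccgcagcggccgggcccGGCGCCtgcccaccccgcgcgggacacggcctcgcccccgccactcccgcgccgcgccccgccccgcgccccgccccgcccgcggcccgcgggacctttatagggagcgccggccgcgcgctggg
The FST match ran from 160 to 154 bases before the start and the FSTL3 match from 125 to 120 bases before it. On either strand TGANTCA was found in 6.57% and GGCGCC in 16.4% of 35116 promoter windows of this length, so that a match is a description and not evidence of binding.

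Chordin, CHRD (ENSG00000090539, chromosome 3), an antagonist of BMPs, was at 1.58 and 1.51 CPM in 501Mel cells and at 0.128, 0.289 and 0.0675 CPM in the Hermes 3A libraries (log2 fold change 3.19 ± 0.58 (SE), adjusted p = 0.00405). Both 501Mel libraries were higher, and the log2 fold change was 3.85 without Hermes 3A replicate 2. The exons of CHRD overlap THPO on the opposite strand, which had 13 and 3 counts in the 501Mel libraries and 0 in every Hermes 3A library. Gremlin, GREM1 (ENSG00000166923, chromosome 15), a further BMP antagonist, had 1 and 0 counts in 501Mel cells and 127, 26 and 12 counts in the Hermes 3A libraries (adjusted p = 0.0106). The summed counts, 1 and 165, scaled by library size, gave a ratio of 124 with a 95% counting interval of 21.9 to 4920. Without Hermes 3A replicate 1 the ratio was 44.2, with an interval of 7.47 to 1790. Its call was lost without either 501Mel replicate (adjusted p = 0.0506 and 0.0593). NOG (noggin) had 22 and 5 counts in 501Mel cells and 1, 2 and 2 counts in the Hermes 3A libraries. It did not pass the filter, and in the fit without a filter it was called higher (log2 fold change 2.67, adjusted p = 0.0315), but not with DESeq2 (adjusted p = 0.0788). FSTL1, a secreted glycoprotein that binds BMPs, was at 201 and 197 CPM and 135, 166 and 210.1 CPM (adjusted p = 0.377), and the lines overlapped. BAMBI, a receptor without kinase domain that dampens TGF-β and BMP signals, was at 141 and 156 CPM in 501Mel cells and 202, 132 and 118 CPM in the Hermes 3A libraries (adjusted p = 0.948). Its levels overlapped too, Hermes 3A replicate 1 being the highest and replicate 3 the lowest of all 5 libraries.

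**Figure D2:**
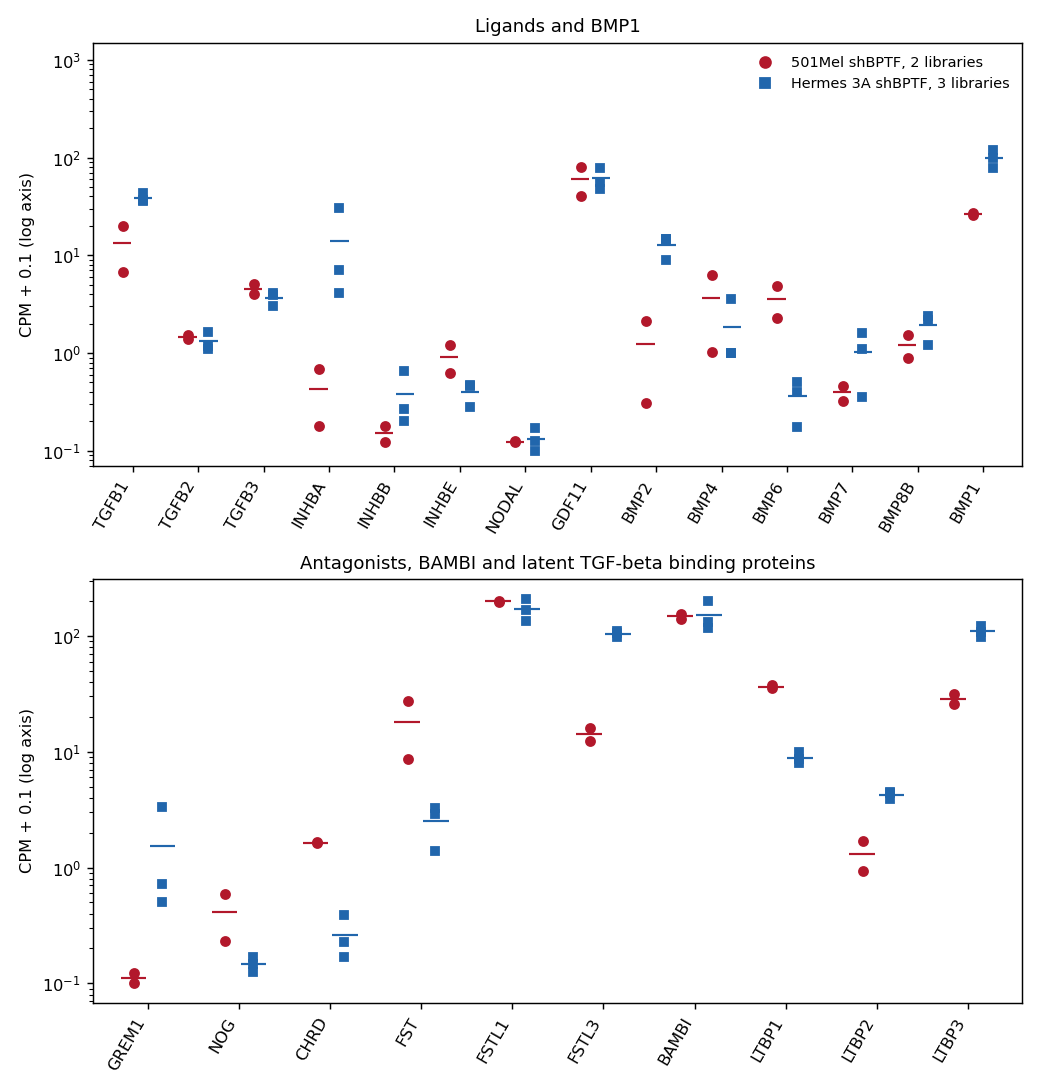
CPM + 0.1 on a log axis of each ligand and BMP1 (top) and of each antagonist, BAMBI and latent TGF-β binding protein (bottom) in every library; red circles, 501Mel shBPTF (2 libraries), blue squares, Hermes 3A shBPTF (3 libraries), and short lines, the mean of each line. BMP6, CHRD, FST and LTBP1 lie higher in 501Mel cells, BMP2, INHBA, GREM1, FSTL3 and LTBP3 lower, and the replicates of INHBA, BMP2 and BMP4 are widely spread.

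Of the 3 TGF-β receptors, the type II receptor TGFBR2 (ENSG00000163513, chromosome 3), which binds the ligand first, was at 38.3 and 30.2 CPM in 501Mel cells and 164, 170.2 and 184 CPM in the Hermes 3A libraries (log2 fold change -2.33 ± 0.17 (SE), adjusted p = 9.36e-05). The lines were far apart relative to their spread, and the call held in all alternatives tried. TGFBR1, the type I kinase that TGFBR2 activates, was at 159 and 136 CPM and at 149, 116 and 145 CPM (adjusted p = 0.610), with overlapping libraries. Within a library the counts of TGFBR2 over those of TGFBR1 were therefore 0.240 and 0.223 for 501Mel, against 1.10, 1.47 and 1.27 for Hermes 3A, without overlap between the lines. TGFBR3 (betaglycan), a coreceptor that presents the ligand, had a mean of 76.8 ± 18.9 CPM (SD, n = 2) in 501Mel cells and 50.5 ± 9.27 CPM (SD, n = 3) in the Hermes 3A libraries (log2 fold change 0.61 ± 0.21 (SE), adjusted p = 0.0488). This is a call at the threshold, which was lost without 501Mel replicate 2, Hermes 3A replicate 1 or Hermes 3A replicate 2 (adjusted p = 0.332, 0.109 and 0.160).

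The 7 activin and BMP receptors split into 2 higher, 2 lower and 3 not called. BMPR2 (ENSG00000204217, chromosome 2), the type II receptor for BMPs, was at 443 and 469 CPM in 501Mel cells and at 225, 213 and 239.7 CPM in the Hermes 3A libraries (log2 fold change 1.01 ± 0.14 (SE), adjusted p = 0.00114). Both 501Mel libraries stood above every Hermes 3A library by a wide margin. It had the highest mean level of the class per kb in 501Mel cells, 69.5 CPM per kb of transcript. ACVR2A, a type II receptor shared by activins and BMPs, had a mean of 24.6 ± 3.12 CPM in 501Mel cells and 9.70 ± 1.31 CPM in the Hermes 3A libraries (log2 fold change 1.34 ± 0.21 (SE), adjusted p = 0.00230). Its exons overlap those of ORC4 on the opposite strand over 6.35% of their length, and ORC4 too had more counts in 501Mel cells (3640 and 3189, against 1527, 1666 and 1276). The type I receptors ACVR1 and ACVR1B were lower in 501Mel cells, ACVR1, which serves BMPs, with means of 27.3 ± 4.09 and 55.7 ± 1.35 CPM (log2 fold change -1.03 ± 0.16 (SE), adjusted p = 0.00202). ACVR1B, the type I receptor of activin, had means of 23.7 ± 3.83 and 39.8 ± 3.02 CPM (log2 fold change -0.75 ± 0.18 (SE), adjusted p = 0.0116), a call lost without 501Mel replicate 2 (adjusted p = 0.0665).

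The other type I BMP receptors did not pass the test. BMPR1A was at 18.0 and 12.6 CPM and at 11.2, 11.1 and 14.8 CPM (adjusted p = 0.357), and BMPR1B at 8.91 and 4.85 CPM and at 8.62, 8.87 and 9.79 CPM (adjusted p = 0.336). The lines overlapped for both. ACVR2B, the second type II activin receptor, was at 2.09 and 2.14 CPM in 501Mel cells and 3.61, 3.33 and 5.47 CPM in the Hermes 3A libraries, without overlap (log2 fold change -0.96 ± 0.37 (SE), adjusted p = 0.0689), and passed the test in DESeq2 (adjusted p = 0.0175). Summed over the class, activin and BMP receptors were at 555 and 556 CPM in 501Mel cells and at 353, 337 and 379 CPM in the Hermes 3A libraries. In CPM, which are not scaled by gene length, most of each sum was BMPR2 (443 and 469 CPM, against 225, 213 and 239.7 CPM). The sums therefore do not describe the other receptors. Of those, ACVR2A was higher in 501Mel cells, ACVR1 and ACVR1B were lower and the rest were not called.

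Among the receptor-regulated SMADs, SMAD9 was higher and SMAD3 lower in 501Mel cells, while SMAD1, SMAD2 and SMAD5 were not called. SMAD9 (ENSG00000120693, chromosome 13), on the BMP branch, was at 38.0 and 21.7 CPM in 501Mel cells and 9.26, 9.86 and 11.4 CPM in the Hermes 3A libraries (log2 fold change 1.55 ± 0.27 (SE), adjusted p = 0.00324). SMAD3, on the TGF-β and activin branch, had a mean of 33.5 ± 7.32 CPM in 501Mel cells and 56.6 ± 2.74 CPM in the Hermes 3A libraries (log2 fold change -0.76 ± 0.18 (SE), adjusted p = 0.0112), and its call was lost without 501Mel replicate 1 (adjusted p = 0.0639). Neither gene overlapped between the lines. SMAD2 was at 112 and 141 CPM and 111, 113 and 116 CPM (adjusted p = 0.399). SMAD1 was at 12.8 and 9.99 CPM and 12.3, 10.7 and 12.8 CPM (adjusted p = 0.834). Both overlapped between the lines. SMAD5 was at 56.3 and 50.7 CPM in 501Mel cells and 44.3, 41.3 and 41.3 CPM in the Hermes 3A libraries, a separation that did not pass the test (adjusted p = 0.0814). SMAD4, the partner of all receptor-regulated SMADs, was at 77.0 and 78.0 CPM in 501Mel cells and 68.8, 68.1 and 70.6 CPM in the Hermes 3A libraries (adjusted p = 0.304). Its log2 fold change was 0.16 ± 0.12 (SE), with all libraries within a narrow range.

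Of the inhibitory SMADs, SMAD6, which acts mainly on BMP receptors, had a mean of 9.44 ± 3.46 CPM (SD, n = 2) in 501Mel cells and 24.6 ± 3.74 CPM (SD, n = 3) in the Hermes 3A libraries (log2 fold change -1.38 ± 0.28 (SE), adjusted p = 0.00653). SMAD7, which acts on TGF-β and BMP receptors, was at 18.7 and 12.4 CPM and 17.5, 13.0 and 13.9 CPM (adjusted p = 0.841). SMAD6 did not overlap between the lines, and SMAD7 did.

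The promoters of SMAD9 and SMAD6 are given as those of the BMP-branch SMADs that differed in opposite directions, again chosen after the values were seen. They are the 250 bases before the RefSeq start on GRCh38.p14, SMAD9 at chr13:36920239-36920488 on the minus strand and SMAD6 at chr15:66701986-66702235 on the plus strand. Capitals mark CACGTG, an E-box of the form that MITF can bind, in SMAD9 and GTCTAGAC, the palindromic SMAD-binding element, in SMAD6.
SMAD9 promoter: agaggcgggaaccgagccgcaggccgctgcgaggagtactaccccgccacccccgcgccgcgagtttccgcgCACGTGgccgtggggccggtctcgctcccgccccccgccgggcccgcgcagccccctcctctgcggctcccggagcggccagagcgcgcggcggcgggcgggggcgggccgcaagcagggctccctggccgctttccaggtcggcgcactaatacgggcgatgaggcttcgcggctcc
SMAD6 promoter: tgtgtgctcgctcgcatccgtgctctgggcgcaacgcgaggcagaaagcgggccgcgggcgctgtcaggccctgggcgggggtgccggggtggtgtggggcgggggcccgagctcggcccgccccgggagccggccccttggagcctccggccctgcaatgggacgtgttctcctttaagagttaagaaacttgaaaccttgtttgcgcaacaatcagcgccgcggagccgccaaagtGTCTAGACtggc
The SMAD9 match ran from 178 to 173 bases before the start and the SMAD6 match from 12 to 5 bases before it. CACGTG was found in 6.34% and GTCTAGAC in 0.182% of the 35116 windows. A promoter window was found for 42 of the 47 genes, of which 8 were called higher, 14 lower and 17 were tested and not called. CACGTG was found in 1 of the 8, 2 of the 14 and 3 of the 17, and CATGTG, another E-box that MITF can bind, in 0 windows of each set (9.42% of all windows). TGANTCA was found in 1, 0 and 1, and GGCGCC in 2, 6 and 5 of these windows. GTCTAGAC was found in SMAD6 alone. None of these counts is a test of binding.

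The ID genes encode helix-loop-helix proteins that block the DNA binding of E proteins and are induced by BMP signalling in many cells. Of the 4, ID1, ID2 and ID3 were lower in 501Mel cells and ID4 was not called. ID2 (ENSG00000115738, chromosome 2) was at 27.2 and 24.1 CPM in 501Mel cells and 114, 250.4 and 276 CPM in the Hermes 3A libraries (log2 fold change -3.06 ± 0.39 (SE), adjusted p = 0.000930). The lines did not overlap, though Hermes 3A replicate 1 was well below replicates 2 and 3. The antisense gene ID2-AS1, over 1.72% of the exons of ID2, had at most 46 counts in any library. ID1 (ENSG00000125968, chromosome 20) was at 16.5 and 5.24 CPM in 501Mel cells and 44.2, 25.3 and 37.0 CPM in the Hermes 3A libraries (log2 fold change -1.70 ± 0.49 (SE), adjusted p = 0.0236). The 501Mel replicates of ID1 were 3.15-fold apart, the log2 fold change was -2.76 without 501Mel replicate 1 and -1.12 without replicate 2, and the call was narrowly lost without Hermes 3A replicate 3 (adjusted p = 0.0504). ID3 (ENSG00000117318, chromosome 1) was at 112 and 62.0 CPM in 501Mel cells and 193, 137 and 163 CPM in the Hermes 3A libraries (log2 fold change -0.91 ± 0.27 (SE), adjusted p = 0.0280), again without overlap. Its call was lost without 501Mel replicate 2, Hermes 3A replicate 1 or Hermes 3A replicate 3 (adjusted p = 0.112, 0.0533 and 0.0556). ID4 was at 15.9 and 13.8 CPM and 10.7, 14.2 and 13.9 CPM (adjusted p = 0.498), with overlapping libraries. The 4 genes summed to 172 and 105 CPM in 501Mel cells and to 362, 427 and 489 CPM in the Hermes 3A libraries. Per kb of transcript ID3 had the highest mean level of the class in 501Mel cells (97.7 CPM per kb) and ID2 in the Hermes 3A libraries (215 CPM per kb).

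**Figure D3:**
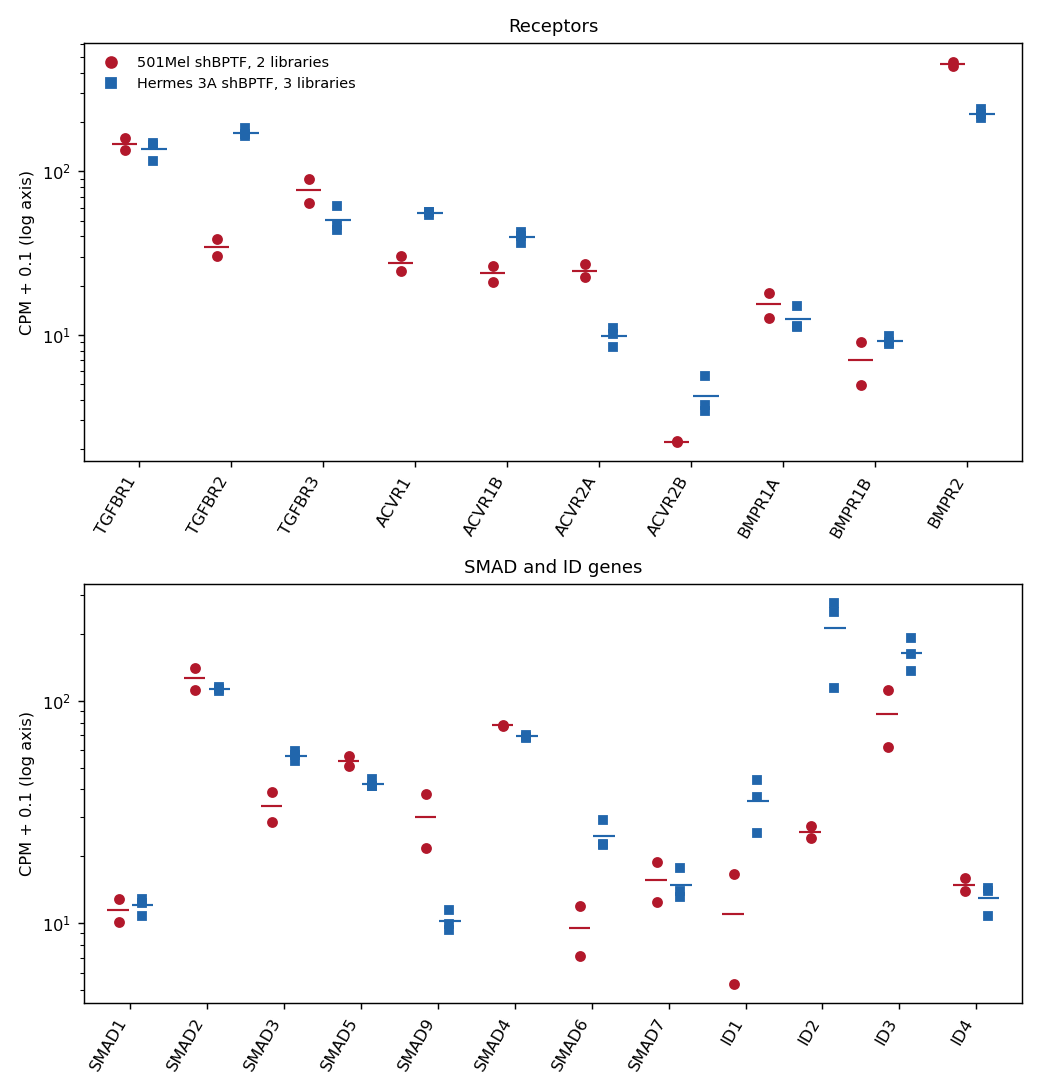
CPM + 0.1 on a log axis of each receptor (top) and of each SMAD and ID gene (bottom) in every library; red circles, 501Mel shBPTF (2 libraries), blue squares, Hermes 3A shBPTF (3 libraries), and short lines, the mean of each line. TGFBR2 and ID2 lie well below in 501Mel cells, BMPR2, ACVR2A and SMAD9 above, and SMAD4 is nearly level.

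Ratios of counts within a library do not depend on how libraries are scaled. The libraries were treated with a nuclease that lowers abundant transcripts, and its effect on the ratios was not tested. For 9 pairs of related genes, given without a test, the 2 lines did not overlap. The pairs were picked after the values were seen, so this separation adds nothing to the calls. Counts of TGFBR3 over TGFBR2 were 1.66 and 2.98 for 501Mel, against 0.268, 0.274 and 0.332 for Hermes 3A. Counts of LTBP1 over LTBP3 were 1.19 and 1.37 for 501Mel, against 0.0996, 0.0704 and 0.0725 for Hermes 3A. FST over FSTL3 gave 0.539 and 2.25 for 501Mel, against 0.0291, 0.0266 and 0.0131 for Hermes 3A. For each of these the line with the higher ratio was 501Mel, and on a log scale the gap between lines exceeded the gap between replicates. SMAD9 over SMAD1 was 2.96 and 2.17 for 501Mel, against 0.754, 0.919 and 0.887 for Hermes 3A, and ACVR2A over ACVR1 was 0.890 and 0.920 for 501Mel, against 0.147, 0.201 and 0.176 for Hermes 3A. The reverse held for ID2 over ID4 (1.71 and 1.75 for 501Mel, against 10.7, 17.6 and 19.9 for Hermes 3A), SMAD6 over SMAD7 (0.635 and 0.563 for 501Mel, against 1.28, 1.73 and 2.08 for Hermes 3A) and SMAD3 over SMAD2 (0.254 and 0.274 for 501Mel, against 0.484, 0.504 and 0.512 for Hermes 3A). Since genes differ in length, a ratio above or below 1 does not order the levels of a pair.

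**Figure D4:**
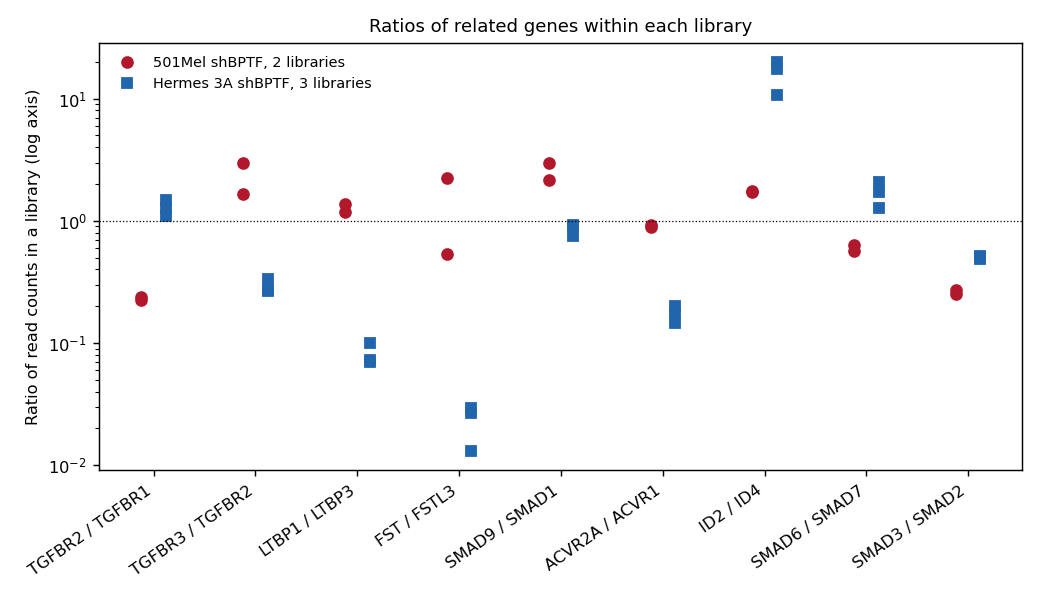
Ratio of read counts of related genes within each library, on a log axis, for 9 pairs; red circles, 501Mel shBPTF (2 libraries), blue squares, Hermes 3A shBPTF (3 libraries), and the dotted line, a ratio of 1. The lines do not overlap for any pair shown, and LTBP1 over LTBP3 and FST over FSTL3 lie furthest apart.

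The spread between replicates was large for some of these genes. Of the 42 tested genes with counts in every library, 7 were at least 2-fold higher in replicate 1 than in replicate 2, or 16.7%, against 7.15% of all genes. These were BMP2 (9.81-fold), INHBA (7.47-fold), BMP4 (6.73-fold), ID1 (3.15-fold), TGFB1 (3.02-fold), BMP6 (2.16-fold) and GDF11 (2.01-fold), thus mostly ligands. FST and INHBE were at least 2-fold higher in replicate 2, which is 4.76% against 4.58% of all genes. The fibroblast markers also summed higher in replicate 1, to 18.9 CPM against 4.28 CPM in replicate 2, with LUM at 8.08 against 2.30 CPM and COL1A1 at 6.32 against 0.731 CPM, and their part in these differences was not tested. In Hermes 3A cells the highest library was at least 2-fold above the lowest for 9 of the 42 genes, or 21.4%, against 23.7% of all genes, with INHBA (7.68-fold), BMP7 (5.94-fold) and BMP6 (5.34-fold) the most spread.

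Other genes of the pathway were counted from a list of 64, of which 57 were listed for both lines and 40 could be tested. In 501Mel cells 9 were higher and 13 lower, 55.0% of those tested against the 48.2% of all genes, and 18 were not called. This list too was chosen with earlier results of these data known, so the shares are a description only. Of the 8 genes of latent TGF-β activation 5 were tested: 4 were lower (LTBP4, FBN1, THBS1 and ITGB8), 0 higher and ITGAV was not called. The 3 that did not pass the filter include FBN2, with 38 and 8 counts in 501Mel cells and 1, 4 and 2 in the Hermes 3A libraries. The modulators outside the cell held 3 higher and 1 lower of 6 tested. Of all genes tested 24.2% were higher and 24.0% lower, and these small classes were not tested as sets. FSTL5, a follistatin-like gene, was at 73.5 and 116 CPM in 501Mel cells and 0.0767, 0.217 and 0.0675 CPM in the Hermes 3A libraries (log2 fold change 9.51 ± 0.41 (SE), adjusted p = 1.7e-05). HEY1, a transcriptional repressor that Notch and BMP signals can induce, was at 123 and 115 CPM and 10.0, 20.5 and 18.0 CPM (log2 fold change 2.88 ± 0.29 (SE), adjusted p = 0.000330). Both were higher in every 501Mel library, as were SOSTDC1, an antagonist of BMP and WNT ligands (log2 fold change 4.94 ± 0.86 (SE), adjusted p = 0.00324), and AMH, a ligand known from the gonads (log2 fold change 2.87 ± 0.57 (SE), adjusted p = 0.00583).

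FSTL5 and SOSTDC1 passed the filter on low counts only through 501Mel cells, and ACVRL1 and MSX2 only through Hermes 3A cells, so that a difference was bound to be found in these 4 genes and their p-values add nothing to it. In the other direction, ACVRL1 (ALK1), a type I receptor best known from endothelium, had 0 and 2 counts in 501Mel cells and 154, 121 and 142 counts in the Hermes 3A libraries (adjusted p = 0.000629), a ratio of 157 from the summed counts scaled by library size, with a 95% counting interval of 43.1 to 1300. THBS1 (thrombospondin 1), which can activate latent TGF-β, was at 0.338 and 0.261 CPM in 501Mel cells and 77.7, 20.6 and 8.71 CPM in the Hermes 3A libraries (log2 fold change -6.88 ± 1.15 (SE), adjusted p = 0.00283). It was lower in both 501Mel libraries, while Hermes 3A replicate 1 stood far above the other two. MSX2, a homeobox gene downstream of BMPs, was at 0.158 and 0.0261 CPM in 501Mel cells and 6.65, 6.72 and 6.72 CPM in the Hermes 3A libraries (log2 fold change -6.09 ± 0.63 (SE), adjusted p = 0.000384), nearly equal in the Hermes 3A libraries. FBN1 (fibrillin 1), the matrix protein to which LTBPs attach, was at 4.43 and 1.41 CPM and 28.8, 39.5 and 58.7 CPM (log2 fold change -3.85 ± 0.56 (SE), adjusted p = 0.00153).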

How the data were processed

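Total RNA of shBPTF 501Mel and Hermes 3A cells had been depleted of ribosomal RNA, made into libraries and sequenced. Before sequencing, the libraries were normalised with a duplex-specific nuclease, which lowers abundant transcripts. How far this step changed the levels, fold changes and ratios given here was not tested. The authors deposited raw read counts per Ensembl gene without normalization, and the submitters' processing notes name CASAVA 1.8, TopHat 1.4.1 and Bowtie 0.12.7 with the hg19 build. The counting program, annotation and strand setting are not given in the sources used here. Genes were named by GENCODE 29 (94.5% of the identifiers listed for both lines matched), whose GRCh38 lengths (median transcript) gave CPM per kb. The size of a value per kb depends on the length used. For TGFB1 in 501Mel cells it was 27.9 CPM per kb with the median transcript of 0.479 kb and 4.13 with the union exon length. Levels of genes were ordered only where the union exon length gave the same order.

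Samples were grouped by the cell line in their labels. Genes listed for both lines were filtered with filterByExpr (minimum count 10) and compared with edgeR 4.0.16 (TMM, quasi-likelihood test) in R 4.3.3, with Benjamini-Hochberg adjustment over the 17975 genes tested and a threshold of 0.05. CPM were computed with the TMM-normalised library sizes. The SE was derived from the fold change and its F statistic. Ratios of summed low counts have exact 95% intervals, and these intervals and the limits from 3 counts cover counting error only. Replicates of a line differed far beyond counting noise (chi-square of at least 21.5 per gene), so no pair was counted as 1 sample. Alternatives were RLE size factors, library totals alone, no filter, another filter, DESeq2 1.42.0, a replicate block, leaving out each library and, added after the data were seen, genes listed for either line. The test was checked on simulated data with the same dispersion of 0.05 for every gene and log2 fold changes of 2 in either direction. That setting is simpler than these data and does not cover genes with widely spread replicates. The 47 genes and all lists were chosen with earlier results of these data known. Values in every library are given for the 16 called genes of the 47 with the largest change, those highest per kb in their class and each one not called, and means for the other called genes. Of the other pathway genes, up to 4 called genes per direction with the largest change are given. Promoters are from RefSeq.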

Additional observations from a re-analysis of the deposited data

How the results depend on the processing

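Over all alternatives the number of the 47 genes called higher in 501Mel cells ran from 7 to 9 and the number called lower from 13 to 17. Of the 24 called genes, 18 kept their call in every other fit tried, 6 lost it in some (TGFBR3, ID3, GREM1, ACVR1B, SMAD3 and ID1), and 0 changed direction. TGFBR3 was also lost with RLE size factors, the other filter and DESeq2 (adjusted p = 0.0549, 0.0568 and 0.0741). SMAD5 was called with library totals alone. With at least a 2-fold change also required, 7 were higher and 13 lower. Leaving out each library in turn, the number of all genes called higher ran from 2864, without 501Mel replicate 1, to 4595, against 4354 with all libraries. The direction turned in some alternatives for 8 genes of the pathway that were not called. Leaving out each library, the log2 fold changes ran for TGFB2 from -0.00073 to 0.37, GDF11 from -0.60 to 0.39, BMP4 from -0.95 to 1.95, TGFBR1 from -0.049 to 0.21, BAMBI from -0.22 to 0.23, SMAD1 from -0.26 to 0.089, SMAD2 from -0.035 to 0.32 and SMAD7 from -0.26 to 0.32. With library totals alone GDF11 was at 0.055, BAMBI at 0.056 and SMAD1 at 0.0076. The cause was not tested.

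Fitting a replicate block gave 8 pathway genes higher and 16 lower, and 3627 and 3834 of all genes. GDF11 was then at 0.13. Deviations of same-numbered libraries correlated at 0.0996 and 0.133 across genes, and nothing states that a number marks a shared culture, so the samples were not taken as paired. Without the filter on low counts NOG was called higher in 501Mel cells, and INHBB and NODAL were not called. BMP5 could not be compared.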
